A study of Homo sapiens with 12 samples.

Results

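The NF-kB factors and feedback genes described here are 10 genes, the subunit genes NFKB1, NFKB2, RELA, RELB and REL and the feedback genes NFKBIA, NFKBIE, TNFAIP3, BIRC3 and BCL3. They were taken by symbol from a table of 22784 gene symbols, and all 10 were in the table and were among the 14839 symbols expressed highly enough to be tested. The values are from RNA-seq of SK-UT-1, an established human uterine leiomyosarcoma (uLMS) cell line, so every group is the same line. Cells were exposed for 48 h to the vehicle DMSO or to JQ1 or I-BET 762, each at 5 µM. JQ1 and I-BET 762 are inhibitors of the bromodomains of BET proteins (BETis), and RNA of all groups was sequenced from strand-specific libraries of total RNA. The libraries analysed were 3 with DMSO (replicates 13, 14 and 15), 4 with JQ1 (17 to 20) and 3 with I-BET 762 (21, 22 and 23). DMSO replicate 16 and I-BET 762 replicate 24 were not analysed here. Nothing in the labels says whether the replicates were separate cultures, so the p-values measure only the spread between these libraries, which may be technical.

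NF-kB is a family of dimeric transcription factors built from p50 (made from the NFKB1 product p105), p52 (made from the NFKB2 product p100), p65 (RELA), RelB and c-Rel. IkB proteins hold the dimers in the cytoplasm until the IKK kinases mark the IkB for destruction, and in an alternative branch the kinase NIK and IKK alpha drive the processing of p100 to p52, the partner of RelB. The dimers bind kB sites in DNA and switch on inflammatory and survival genes, and among their targets are their own inhibitors, such as IkB alpha (NFKBIA) and the ubiquitin-editing enzyme A20 (TNFAIP3). BET proteins bind acetylated histones and acetylated RELA and help RNA polymerase to elongate at such genes.

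Stretches of RefSeq promoter (GRCh38.p14) are shown for the 7 of these genes in which a match to the 10-base kB consensus was found, since NF-kB acts back on its own genes through kB sites such as these. Bases are counted from the RefSeq transcript start, each stretch is written 5′ to 3′ in the direction of the gene, and capitals mark the bases matched by the consensus on either strand.
NFKB1: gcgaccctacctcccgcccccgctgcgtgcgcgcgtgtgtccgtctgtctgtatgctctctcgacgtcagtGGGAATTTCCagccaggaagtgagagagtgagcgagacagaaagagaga
NFKB2: gtcatGGGAATTCCCCcctccggggggccg
REL: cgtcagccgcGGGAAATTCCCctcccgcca
NFKBIA: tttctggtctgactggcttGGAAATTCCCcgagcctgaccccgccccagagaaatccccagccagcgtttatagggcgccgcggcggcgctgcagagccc
TNFAIP3: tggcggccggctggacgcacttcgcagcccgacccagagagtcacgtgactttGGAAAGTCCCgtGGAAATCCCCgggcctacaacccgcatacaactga
BIRC3: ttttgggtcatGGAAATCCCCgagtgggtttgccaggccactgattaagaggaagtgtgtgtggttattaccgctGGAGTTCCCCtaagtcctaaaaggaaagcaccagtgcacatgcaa
BCL3: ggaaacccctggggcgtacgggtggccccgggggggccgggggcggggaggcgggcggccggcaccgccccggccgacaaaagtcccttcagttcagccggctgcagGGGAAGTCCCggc

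The stretches lie at chr4:102501239-102501358 (NFKB1, plus strand), chr10:102394466-102394495 (NFKB2, plus strand), chr2:60881517-60881546 (REL, plus strand) and chr14:35404750-35404849 (NFKBIA, minus strand). The other three are at chr6:137867139-137867238 (TNFAIP3), chr11:102317274-102317393 (BIRC3) and chr19:44748603-44748722 (BCL3), all on the plus strand. TNFAIP3 carried 2 matches close together, at bases -67 to -58 and -55 to -46, and BIRC3 carried 2 that lay farther upstream, at -199 to -190 and -135 to -126. In the NFKB2 window shown, overlapping matches covered bases -107 to -97 and a further match lay at -78 to -69, and in another of its 3 windows there were 2 more. The BCL3 match lay just inside the transcript, at bases 3 to 12. RELA had no match in its 2 windows, which says only that these letters are absent there, and RELB and NFKBIE had no window. The windows run from 250 bases before to 50 bases after a start, and 7.09% of the 27305 genes with a window held a match, against 7 of the 8 genes described here that had a window.

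The libraries held 35564590 to 38899942 reads on genes with DMSO, 35691649 to 39658988 with JQ1 and 37733029 to 38404999 with I-BET 762, so that 3 reads, the limit that a count of 0 allows, corresponded to 2.73 to 3.30 normalized counts. This limit covers counting error only. Of 8 smooth muscle markers, which include ACTA2, CNN1 and DES, 7 were in the table. All 7 were above 3 reads in some library of each group, though DES was at 2.18 normalized counts in JQ1 replicate 18. Their summed level was 20500.4 to 21136 normalized counts with DMSO, 10661 to 11269 with JQ1 and 11822 to 12374 with I-BET 762. With each BETi 6 of them were lower than with DMSO and 1, SMTN, was higher. Of 9 haematopoietic markers, 7 were in the table and only CD14 was above 3 reads with DMSO; their summed level was 28.2 to 36.1 with DMSO, 30.8 to 39.6 with JQ1 and 19.7 to 27.1 with I-BET 762. The summed level of 4 endothelial markers was at most 7.40 in any library, and that of 4 epithelial markers was 469.7 to 531 with DMSO, 271 to 336 with JQ1 and 311 to 343 with I-BET 762. The summed level of 3 mesenchymal markers was 113426 to 122055 with DMSO, 152002 to 163274 with JQ1 and 126228 to 129190.0 with I-BET 762. Nearly all of that sum was VIM, with means of 114903, 156300 and 125006 normalized counts. PDGFRB went the other way with both BETis, with means in the same order of 579, 118 and 187. THY1, with means of 2148, 1789 and 2110, was lower with JQ1, while its I-BET 762 libraries overlapped those of DMSO. With I-BET 762, only 1 of the 3 mesenchymal markers, PDGFRB, had an adjusted p-value under 0.05 in limma. The part of these shifts in the results below was not tested. In a bulk sample, fewer cells that express a gene and less RNA per cell cannot be told apart. BRD2, which encodes a target of both BETis, had between 6.78 and 153 normalized counts in the DMSO libraries, 26.0 to 144 with JQ1 and 7.87 to 21.7 with I-BET 762; the DMSO libraries overlapped both BETi groups, and the JQ1 libraries lay above those of I-BET 762 (limma, adjusted p = 0.0980). BRD3 was at 1325 ± 23.8 with DMSO (SD, n = 3), 1059 ± 96.2 with JQ1 (n = 4) and 1026 ± 18.5 with I-BET 762 (n = 3). The BRD2 counts were far below those of BRD3 and spread widely within the DMSO group. Whether reads of BRD2 were lost in counting was not tested, so its counts may not give its true level. HEXIM1 and MYC were chosen as genes known to respond to BETis, without regard to the direction. Both were higher with JQ1 than with DMSO, by 1.53 ± 0.049 for HEXIM1 and 1.002 ± 0.054 for MYC on the log2 scale (SE). With I-BET 762 they were higher by 1.05 ± 0.053 and 0.54 ± 0.058. No usual direction was set beforehand, so whether the response was the usual one was not tested.

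The members of the family moved apart. With either BETi, TNFAIP3 and BCL3 fell by more than 2-fold and NFKB1 and NFKB2 fell less, while REL rose. BIRC3, which encodes the ubiquitin ligase cIAP2, rose with JQ1 and fell with I-BET 762. Here "rose" and "fell" are used for an adjusted p-value under 0.05 in limma (Benjamini-Hochberg over the 14839 tested genes), and DEG for a gene that was also changed by more than 1.5-fold. With JQ1, 4 of the 10 genes were DEGs, where 36.1% of all tested genes were. Of these, 1 was up and 3 were down, beside 13.3% and 22.8% of all tested genes. On the adjusted p-value alone 8 passed (71.7% of all tested genes did), 4 that rose (36.0%) and 4 that fell (35.6%). With I-BET 762, 2 were DEGs, where 26.9% of all tested genes were, and both were down (17.9% of all tested genes were down DEGs and 8.96% up). On the adjusted p-value alone 7 passed (61.1%), 1 that rose (29.9%) and 6 that fell (31.3%). The share of the 10 genes that changed was thus near the background. The median of their log2 fold changes was 0.11 for JQ1 and -0.25 for I-BET 762, beside 0.0076 and -0.00060 over all tested genes. Both comparisons use the same DMSO libraries.

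The fold changes depend on how the libraries were scaled to each other. Rescaled to equal totals instead of the deposited size factors, the median of all tested genes moved to -0.18 with JQ1 and -0.097 with I-BET 762 on the log2 scale. Of all DEGs, 63.1% were lower with JQ1 than with DMSO, and 77.5% after that rescaling. Small rises with JQ1 in the genes below are to be read beside this shift.

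**Figure D1:**
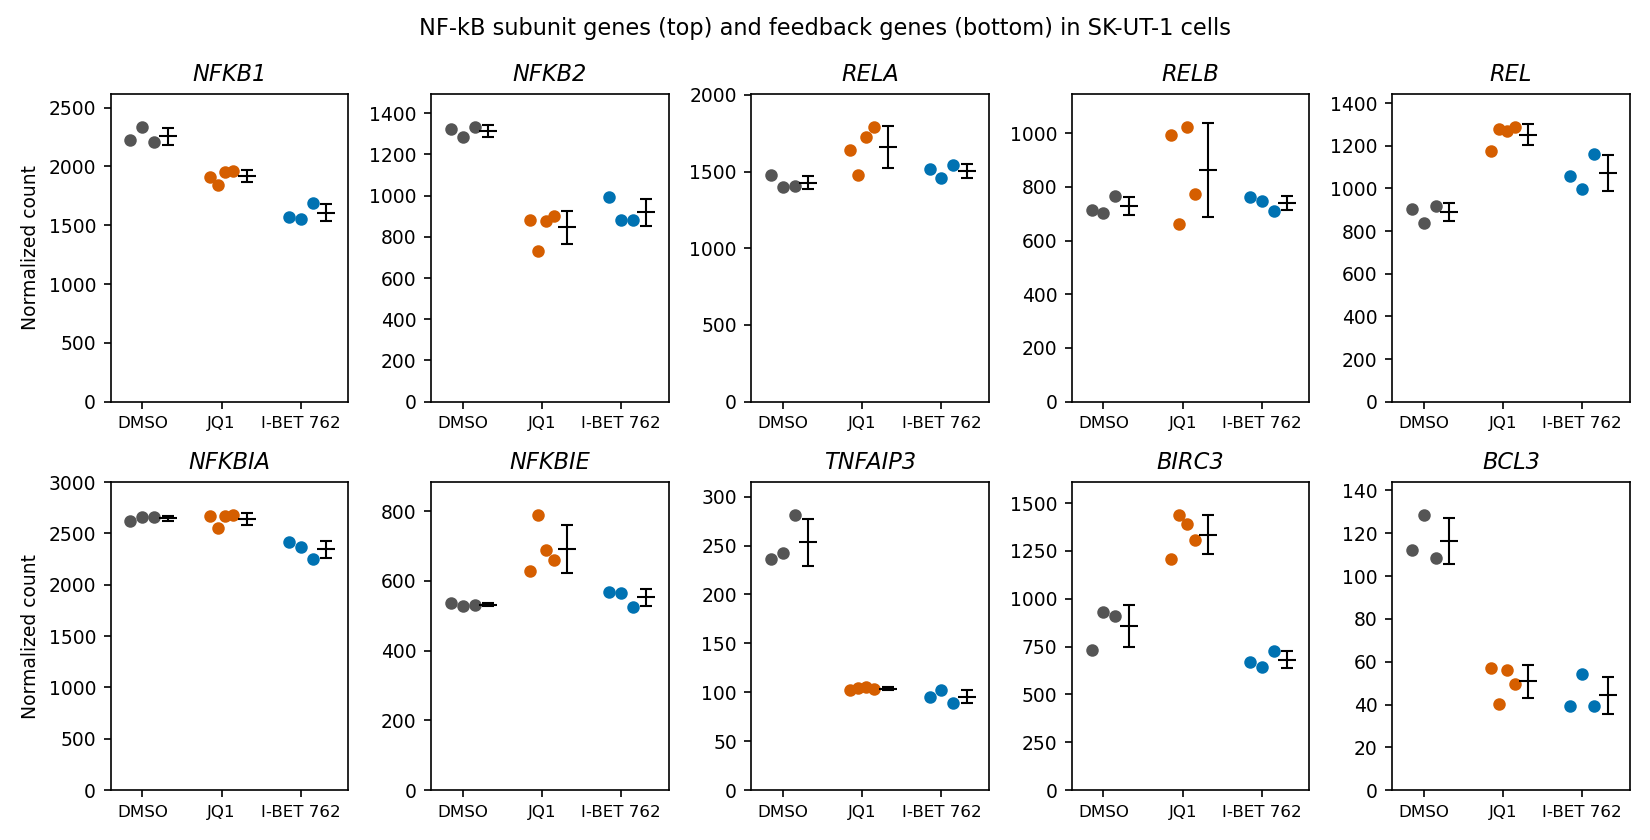
Normalized counts (vertical axis, from 0) of the 5 subunit genes (top) and 5 feedback genes (bottom) in each library of SK-UT-1 cells treated with DMSO, JQ1 or I-BET 762. Each point is 1 library, and the bar beside each group is its mean with the SD (n = 3, 4 and 3). TNFAIP3 and BCL3 lie lower in every BETi library than in every DMSO library, and BIRC3 lies higher with JQ1 and lower with I-BET 762.

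Of the precursor subunit genes, NFKB1 (chr4:102501330-102617302, Gencode V44 on hg38) had 2222, 2339.9 and 2206 normalized counts with DMSO, 1914, 1846, 1952 and 1961 with JQ1, and 1572, 1556 and 1692 with I-BET 762. The groups did not overlap, and DMSO lay highest and I-BET 762 lowest. NFKB1 fell by 0.23 ± 0.050 on the log2 scale with JQ1 (SE; limma, adjusted p = 0.000603) and by 0.49 ± 0.054 with I-BET 762 (limma, adjusted p = 1.09e-06), below 1.5-fold in either case. Groups that do not overlap were common in these data, at 68.4% of tested genes for JQ1 against DMSO and 71.0% for I-BET 762 against DMSO.

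NFKB2 (chr10:102394110-102402524), whose product p100 also acts as an IkB, fell the most among the subunit genes. It had 1323, 1282 and 1335 normalized counts with DMSO, 879, 729, 875 and 901 with JQ1, and 993, 882 and 880.1 with I-BET 762. Every BETi library lay below every DMSO library. The log2 fold change was -0.64 ± 0.075 with JQ1 (limma, adjusted p = 1.21e-06), a DEG, and -0.52 ± 0.080 with I-BET 762 (limma, adjusted p = 3.91e-05). The JQ1 library of replicate 18 was the lowest, and without it the log2 fold change was -0.57, under 1.5-fold. The count of NFKB2 for each count of NFKB1 was 0.548 to 0.605 with DMSO, 0.395 to 0.459 with JQ1 and 0.520 to 0.631 with I-BET 762, so this ratio was lower with JQ1 than in any other library.

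RELA (chr11:65653599-65663090, minus strand), the p65 subunit with a transactivation domain, had 1476, 1399 and 1408 normalized counts with DMSO, 1638, 1476, 1725 and 1794 with JQ1, and 1517, 1457 and 1545 with I-BET 762. The lowest JQ1 library was level with the highest DMSO library, and the I-BET 762 libraries overlapped both groups. RELA rose by 0.21 ± 0.063 on the log2 scale with JQ1 (limma, adjusted p = 0.00668), a call that was lost when libraries were rescaled to equal totals (0.028, limma, adjusted p = 0.755). With I-BET 762 the log2 difference was 0.077 ± 0.068 (limma, adjusted p = 0.338), and it turned to -0.019 under that rescaling.

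RELB (chr19:45001461-45038192), the partner of p52, had 714, 703 and 765 normalized counts with DMSO, 993, 663, 1024 and 772 with JQ1, and 763, 746 and 709.8 with I-BET 762. The JQ1 libraries were spread more widely than those of the other groups, with replicates 17 and 19 far above the DMSO range, replicate 20 just above it and replicate 18 below it. The log2 difference was 0.22 ± 0.12 with JQ1 (95% interval -0.023 to 0.47; limma, adjusted p = 0.0962) and 0.024 ± 0.12 with I-BET 762 (-0.24 to 0.29; limma, adjusted p = 0.879). JQ1 replicate 18 decided that result: without it the log2 difference was 0.34 (limma, adjusted p = 0.00224). NFKBIB, which encodes IkB beta, had the same order of the JQ1 libraries, at 772, 507, 813 and 600.4 normalized counts.

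REL (chr2:60881491-60931612), which encodes c-Rel, had 906, 839 and 918 normalized counts with DMSO, 1177, 1276, 1268 and 1290.1 with JQ1, and 1057, 998 and 1163 with I-BET 762. The groups did not overlap and lay in the order DMSO, I-BET 762 and JQ1. REL rose by 0.50 ± 0.064 on the log2 scale with JQ1 (limma, adjusted p = 3.75e-06) and by 0.27 ± 0.069 with I-BET 762 (limma, adjusted p = 0.00292). After rescaling to equal totals these were 0.31 and 0.17 (limma, adjusted p = 0.000819 and 0.0486). Of the annotated exon bases of REL, 33.3% are also exon of a long noncoding RNA on the same strand, so some of its reads may belong to that transcript.

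To set the subunit genes beside each other, counts were divided by the length of all annotated exons of each gene and expressed as a share of the sum of the 5 genes in each library. NFKB2 gave 25.2 ± 0.14% of that sum with DMSO (SD, n = 3), 16.1 ± 0.64% with JQ1 (n = 4) and 19.3 ± 0.99% with I-BET 762 (n = 3), and NFKB1 gave 15.4 ± 0.75%, 13.1 ± 0.99% and 12.0 ± 0.58%. RELA went from 28.0 ± 0.76% with DMSO to 32.4 ± 1.86% with JQ1 and 32.4 ± 0.69% with I-BET 762, and REL from 5.54 ± 0.18% to 7.85 ± 0.95% and 7.34 ± 0.53%. RELB gave 25.9 ± 0.90%, 30.5 ± 3.83% and 29.0 ± 1.11%. The genes of the precursors p105 and p100 thus took a smaller share of the subunit transcripts with both BETis, and RELA, RELB and REL a larger one. A share also grows when the other genes of the sum fall. The counts of RELB did not pass the test with JQ1 or I-BET 762 (limma, adjusted p = 0.0962 and 0.879), nor did those of RELA with I-BET 762 (limma, adjusted p = 0.338). The level of each share, though not the direction of its change, depends on the gene length used.

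**Figure D2:**
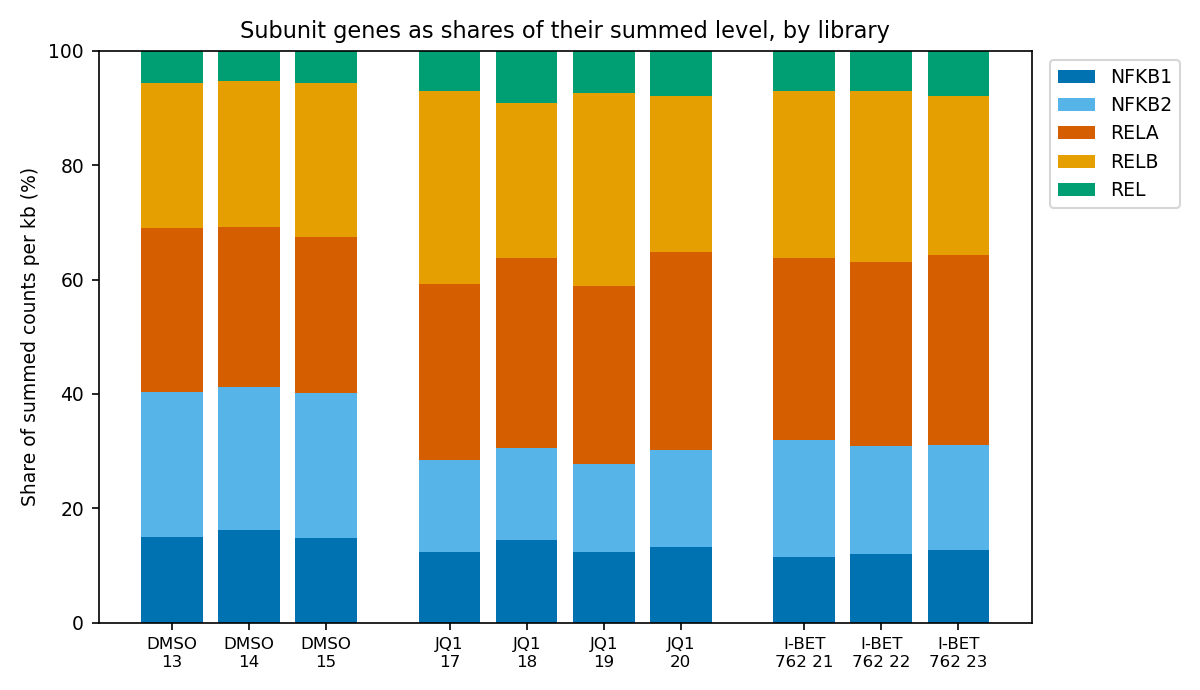
Share of each subunit gene (vertical axis, % of the summed normalized counts per kb of exon of the 5 genes) in each library. The lower segments, NFKB1 and NFKB2, are shorter in each BETi library than in each DMSO library, and REL, the top segment, is taller (5.33% to 5.66% with DMSO and 7.01% to 9.15% with JQ1).

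Among the IkB genes, NFKBIA (chr14:35401079-35404749, minus strand), the IkB that resets the pathway after a stimulus, had the highest level per kb of the 10 genes, at 780 ± 6.94 normalized counts per kb of exon with DMSO. Its normalized counts were 2619, 2657 and 2662 with DMSO, 2666, 2552, 2667 and 2679.7 with JQ1, and 2415, 2371 and 2255 with I-BET 762. The JQ1 and DMSO libraries overlapped and the I-BET 762 libraries lay below both. With JQ1 the log2 difference was -0.0028 ± 0.045 (95% interval -0.099 to 0.093; limma, adjusted p = 0.961), and -0.19 after rescaling to equal totals (limma, adjusted p = 0.00259). With I-BET 762 NFKBIA fell by 0.17 ± 0.048 on the log2 scale (limma, adjusted p = 0.00545).

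NFKBIE (chr6:44258166-44265788, minus strand), which encodes IkB epsilon, had 536, 527 and 531 normalized counts with DMSO, 629, 789, 688 and 659 with JQ1, and 567, 566 and 525 with I-BET 762. All JQ1 libraries lay above those of the other groups. NFKBIE rose by 0.37 ± 0.077 on the log2 scale with JQ1 (limma, adjusted p = 0.000422; 0.19 after rescaling to equal totals). With I-BET 762 the log2 difference was 0.056 ± 0.083 (limma, adjusted p = 0.579), and it turned to -0.041 after rescaling to equal totals.

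TNFAIP3 (chr6:137867214-137883314), which encodes A20, and BCL3 were the members that fell by more than 2-fold with both BETis. It had 236, 242 and 281 normalized counts with DMSO, 102, 104, 105.05 and 103 with JQ1, and 95.4, 102 and 88.6 with I-BET 762. The DMSO libraries were all more than 2-fold above the BETi libraries, and the JQ1 libraries were within a few counts of each other. The log2 fold change was -1.27 ± 0.11 with JQ1 (limma, adjusted p = 4.34e-08) and -1.40 ± 0.12 with I-BET 762 (limma, adjusted p = 6.89e-08), a fold of 0.413 and 0.380.

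BCL3 (chr19:44747705-44760044) encodes an atypical IkB that enters the nucleus and works with p50 and p52 homodimers. It had 112, 129 and 108 normalized counts with DMSO, 57.1, 40.3, 56.02 and 49.7 with JQ1, and 39.4, 54.1 and 39.4 with I-BET 762. Each BETi library lay far below each DMSO library, and the BETi groups overlapped. The log2 fold change was -1.19 ± 0.18 with JQ1 (limma, adjusted p = 1.69e-05) and -1.39 ± 0.19 with I-BET 762 (limma, adjusted p = 1.10e-05). TNFAIP3 and BCL3 were also the lowest of the 10 genes per kb of exon with DMSO, at 39.3 ± 3.79 and 37.6 ± 3.46 normalized counts per kb, and their DMSO ranges overlapped.

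BIRC3 (chr11:102317484-102339403) was the gene of the 10 on which the BETis differed most. It had 733, 929 and 912 normalized counts with DMSO, 1205, 1437, 1392 and 1304 with JQ1, and 670.1, 645 and 729 with I-BET 762. The groups did not overlap, with JQ1 above and I-BET 762 below DMSO. The highest I-BET 762 library (729) lay only just under the lowest DMSO library (733). BIRC3 rose by 0.64 ± 0.086 on the log2 scale with JQ1 (limma, adjusted p = 5.29e-06), a DEG, and fell by 0.33 ± 0.092 with I-BET 762 (limma, adjusted p = 0.00584), under 1.5-fold. DMSO replicate 13 was the lowest of its group, and without it the rise with JQ1 was 0.53 on the log2 scale, under 1.5-fold; rescaled to equal totals it was 0.46. Its neighbouring paralog BIRC2, which encodes cIAP1, was at 4215 ± 245 normalized counts in the DMSO group, 4626 ± 317 in the JQ1 group and 3941 ± 49.9 in the I-BET 762 group. The count of BIRC3 for each count of BIRC2 was 0.186 to 0.214 with DMSO, 0.262 to 0.317 with JQ1 and 0.163 to 0.183 with I-BET 762.

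In the order of levels per kb of exon with DMSO, NFKBIA was followed by RELA (262 ± 7.74 normalized counts per kb), RELB (243 ± 11.2), NFKB2 (235 ± 4.95), NFKBIE (206 ± 1.67), NFKB1 (144 ± 4.67), BIRC3 (115 ± 14.5) and REL (51.8 ± 2.47), ahead of TNFAIP3 and BCL3. RELB and NFKB2 did not differ beyond their spread, since their ranges over libraries overlapped (234 to 255 and 229.7 to 239). With JQ1, NFKB2 was at 152 ± 14.1 and BIRC3 at 178 ± 13.7 normalized counts per kb, and their ranges overlapped narrowly (131 to 161 and 161 to 192). The order depends on the length used: per kb of the MANE Select transcript, NFKB1 with DMSO was at 556 normalized counts, next to RELA at 567, and BCL3 at 62.0 was above TNFAIP3 at 54.3.

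**Figure D3:**
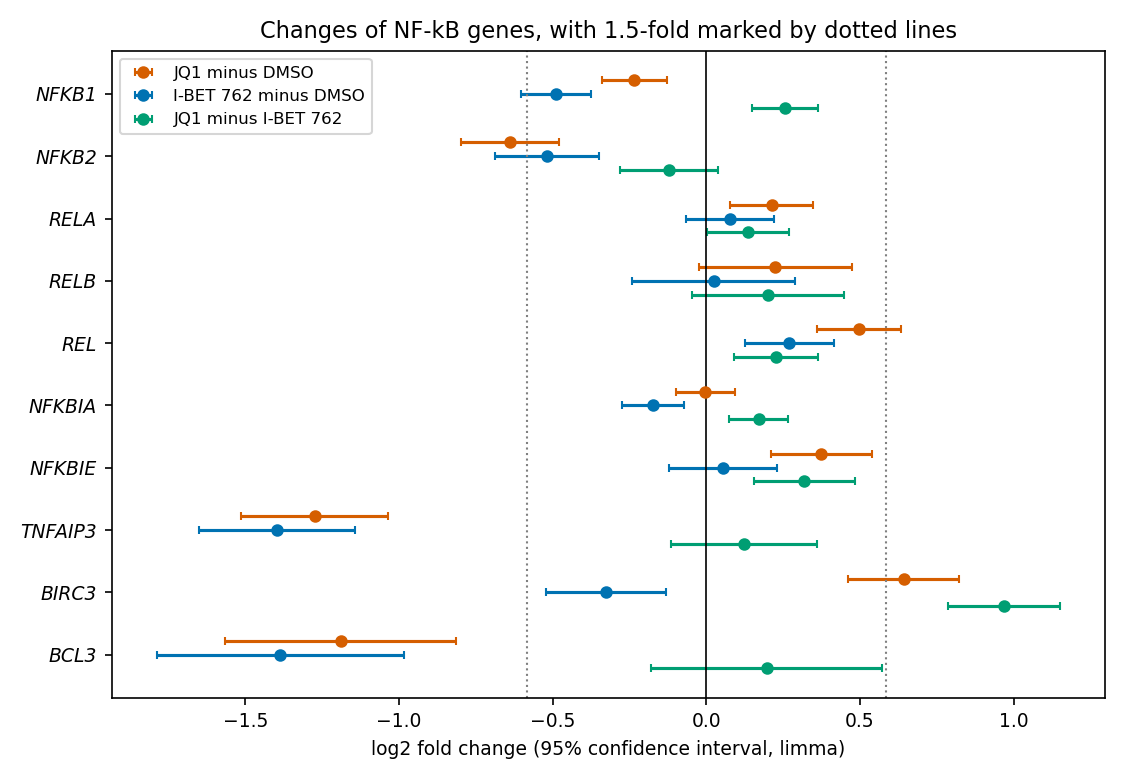
log2 fold change (horizontal axis) of each of the 10 genes in the 3 comparisons, with its 95% confidence interval from limma; dotted lines mark 1.5-fold in either direction. TNFAIP3 and BCL3 lie beyond the left line with both BETis, and BIRC3 lies right of 0 with JQ1 and left of it with I-BET 762. After rescaling to equal totals, RELA, RELB and NFKBIE change sign with I-BET 762 (-0.019, -0.072 and -0.041).

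To see where JQ1 and I-BET 762 differed at the same dose and time, their libraries were compared directly for this pair of compounds. Of the 10 genes, 5 differed at an adjusted p-value under 0.05, where 27.3% of tested genes did, and all 5 were higher with JQ1 (13.3% of tested genes were higher and 14.0% lower). One of them was a DEG, where 5.31% of tested genes were (1.73% higher and 3.59% lower). Of all DEGs of this comparison, 67.5% were lower with JQ1, and 82.0% after rescaling to equal totals. The groups did not overlap for 5 of them, and for 33.8% of tested genes. BIRC3 was 1.96-fold higher with JQ1 (log2 0.97 ± 0.086; limma, adjusted p = 1.60e-06), and it was 0.88 on the log2 scale after rescaling to equal totals. NFKBIE was higher by 0.32 ± 0.077 on the log2 scale (limma, adjusted p = 0.00677) and NFKB1 by 0.26 ± 0.050 (limma, adjusted p = 0.00162). REL was higher by 0.23 ± 0.064 (limma, adjusted p = 0.0162) and NFKBIA by 0.17 ± 0.045 (limma, adjusted p = 0.0110). The last pair lost the call when libraries were rescaled to equal totals (limma, adjusted p = 0.138 and 0.209). REL also lost it without I-BET 762 replicate 21 or 22 (limma, adjusted p = 0.0662 and 0.105), and NFKBIA without replicate 23 (limma, adjusted p = 0.0688).

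For the other 5 genes the direct test was not passed. The interval of the log2 difference, JQ1 minus I-BET 762, was -0.12 to 0.36 for TNFAIP3, -0.18 to 0.57 for BCL3, -0.28 to 0.038 for NFKB2, 0.0013 to 0.27 for RELA and -0.048 to 0.45 for RELB. The interval for BCL3 reaches close to 1.5-fold, and the others end at smaller differences. RELA and RELB passed without JQ1 replicate 18 (limma, adjusted p = 0.00914 and 0.0112).

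The remaining IkB genes were tested beside the 10. NFKBIZ, which encodes the nuclear IkB zeta, rose with JQ1 from 721 ± 21.0 to 1307 ± 108 normalized counts (log2 0.86 ± 0.068; limma, adjusted p = 1.31e-08) and was 0.25 ± 0.073 higher with I-BET 762 on the log2 scale, and the direct difference was 0.61 ± 0.068 (limma, adjusted p = 1.44e-05). NFKBID, which encodes IkB NS, fell with JQ1 (log2 -0.75 ± 0.10; limma, adjusted p = 8.40e-06) and with I-BET 762 (log2 -0.96 ± 0.11; limma, adjusted p = 1.93e-06). NFKBIB overlapped between the groups, with log2 differences of 0.25 ± 0.13 and -0.098 ± 0.13. Of these 3 genes, 2 were DEGs with JQ1 and 1 with I-BET 762, where 36.1% and 26.9% of all tested genes were.

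Among 13 kinases of the pathway, 12 passed the adjusted p-value with JQ1, beside 71.7% of all tested genes. Of these kinases, 8 were up and 4 down, beside 36.0% and 35.6% of all tested genes. DEGs numbered 2 (15.4%, beside 36.1% of all tested genes). IKBKE, the kinase IKK epsilon, fell from 750.2 ± 22.6 normalized counts with DMSO to 188 ± 7.85 with JQ1 and 299 ± 24.5 with I-BET 762, log2 fold changes of -1.99 ± 0.082 and -1.33 ± 0.088 (limma, adjusted p = 6.11e-12 and 3.98e-09). CHUK, which encodes IKK alpha, rose by 0.63 ± 0.063 and 0.52 ± 0.067 (limma, adjusted p = 1.74e-07 and 5.44e-06). MAP3K14, which encodes NIK, rose by 0.57 ± 0.079 and 0.49 ± 0.084, under 1.5-fold. The median log2 fold change of the kinases was 0.27 with JQ1 and 0.15 with I-BET 762.

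Of 26 receptors and adaptors, 24 were tested, 14 were DEGs with JQ1 (4 up and 10 down) and 12 with I-BET 762 (4 up and 8 down), and the median was -0.31 and -0.36 on the log2 scale. Among all tested genes, 36.1% were DEGs with JQ1 (13.3% up and 22.8% down) and 26.9% with I-BET 762 (8.96% up and 17.9% down). TLR3, the receptor for double-stranded RNA, fell from 914 ± 54.4 normalized counts with DMSO to 62.8 ± 4.85 with JQ1 and 124 ± 10.8 with I-BET 762 (log2 -3.84 ± 0.11 and -2.88 ± 0.12; limma, adjusted p = 8.36e-14 and 1.46e-11). LTBR, the lymphotoxin beta receptor, went from 26.1 ± 3.57 normalized counts with DMSO to at most 3 reads in every library of the JQ1 group, which is at least 7.93-fold lower against the limit of 3 reads in a library. IRAK1 fell (log2 -1.62 ± 0.057 with JQ1 and -1.54 ± 0.061 with I-BET 762), and so did MYD88, the adaptor it works with (log2 -0.94 ± 0.089 and -0.99 ± 0.096). TRAF5, TRAF1, TNFRSF1B and CARD10 were also down DEGs with both BETis, and TRAF3 and CD40 with JQ1. The up DEGs were TNFRSF12A, the receptor for TWEAK (1.92 ± 0.088 and 1.37 ± 0.094), IRAK2 (1.62 ± 0.13 and 1.10 ± 0.14), IL1RAP (1.53 ± 0.11 and 1.47 ± 0.12) and RIPK1 (1.10 ± 0.045 and 0.88 ± 0.048), the kinase that docks at TNF receptor 1.

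Of 19 genes of the ubiquitin system around NF-kB, 18 were tested and 2 were DEGs with each BETi (11.1%, beside 36.1% of all tested genes with JQ1 and 26.9% with I-BET 762). PDLIM2, whose product sends RELA for destruction in the nucleus, fell with both BETis (log2 -2.604 ± 0.14 with JQ1 and -2.02 ± 0.15 with I-BET 762; limma, adjusted p = 1.05e-10 and 1.14e-08). CYLD, a deubiquitinase that dampens the pathway, fell as well (log2 -0.89 ± 0.060 and -0.66 ± 0.064; limma, adjusted p = 1.67e-09 and 2.39e-07). TNIP1, a partner of A20, fell by under 1.5-fold (log2 -0.49 ± 0.055 and -0.56 ± 0.058). Most changes in this list were small. With JQ1, 9 of the 18 genes rose and 4 fell at the adjusted p-value, beside 36.0% and 35.6% of all tested genes. Those that rose included TNIP2, another partner of A20 (0.47 ± 0.064).

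Among 29 genes induced by NF-kB in many cells, 23 were tested, and 15 were DEGs with JQ1 (5 up and 10 down) and 12 with I-BET 762 (3 up and 9 down), and the median of their log2 fold changes was -0.49 and -0.35. The DEGs were 65.2% and 52.2% of the list. Among all tested genes these shares were 36.1% (13.3% up and 22.8% down) and 26.9% (8.96% up and 17.9% down). The other 6, IL6, VCAM1, BCL2A1, PTGS2, PTX3 and TNFSF10, were too low to be tested. The cytokine gene IL32 fell from 163 ± 15.3 normalized counts with DMSO to 6.30 ± 3.15 with JQ1 and 6.92 ± 2.57 with I-BET 762 (log2 -4.59 ± 0.35 and -4.42 ± 0.37; limma, adjusted p = 6.93e-09 and 5.39e-08). The chemokine gene CXCL8 fell as well (log2 -0.90 ± 0.12 with JQ1 and -1.63 ± 0.13 with I-BET 762), and CXCL3, CXCL2 and CCL20 were down DEGs with both. CCL20 was low in all groups, with means of 13.3 normalized counts with DMSO, 1.79 with JQ1 and 1.65 with I-BET 762. The size of its fall is thus poorly known (SE of 0.74 and 0.79 on the log2 scale). STAT5A fell more with JQ1 (log2 -2.77 ± 0.099 with JQ1 and -2.09 ± 0.11 with I-BET 762; direct difference -0.69 ± 0.099, limma, adjusted p = 0.000130). The adhesion gene ICAM1 also fell with both (log2 -1.75 ± 0.23 and -2.5001 ± 0.25). In the other direction, IER3, an immediate early gene, rose from 52.6 ± 2.35 normalized counts with DMSO to 432 ± 30.9 with JQ1 and 176 ± 16.4 with I-BET 762 (log2 3.01 ± 0.11 and 1.72 ± 0.11; limma, adjusted p = 9.70e-13 and 3.72e-09). PLAU, which encodes urokinase, and SOD2, the mitochondrial superoxide dismutase, rose by 1.39 ± 0.043 and 1.07 ± 0.046 with JQ1 and by 1.03 ± 0.046 and 0.84 ± 0.049 with I-BET 762.

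Of 12 cofactors, 3 were DEGs with JQ1 (25.0%, beside 36.1% of all tested genes). SIRT1, a deacetylase that acts on RELA, rose by 0.77 ± 0.046 on the log2 scale and PIAS1 by 0.64 ± 0.049, and CREBBP, an acetyltransferase, fell by 0.80 ± 0.10 (SE; limma, adjusted p = 4.30e-10, 8.48e-09 and 4.02e-06). With I-BET 762 the same genes changed by 0.49 ± 0.049, 0.58 ± 0.052 and -0.44 ± 0.11, each under 1.5-fold.

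**Figure D4:**
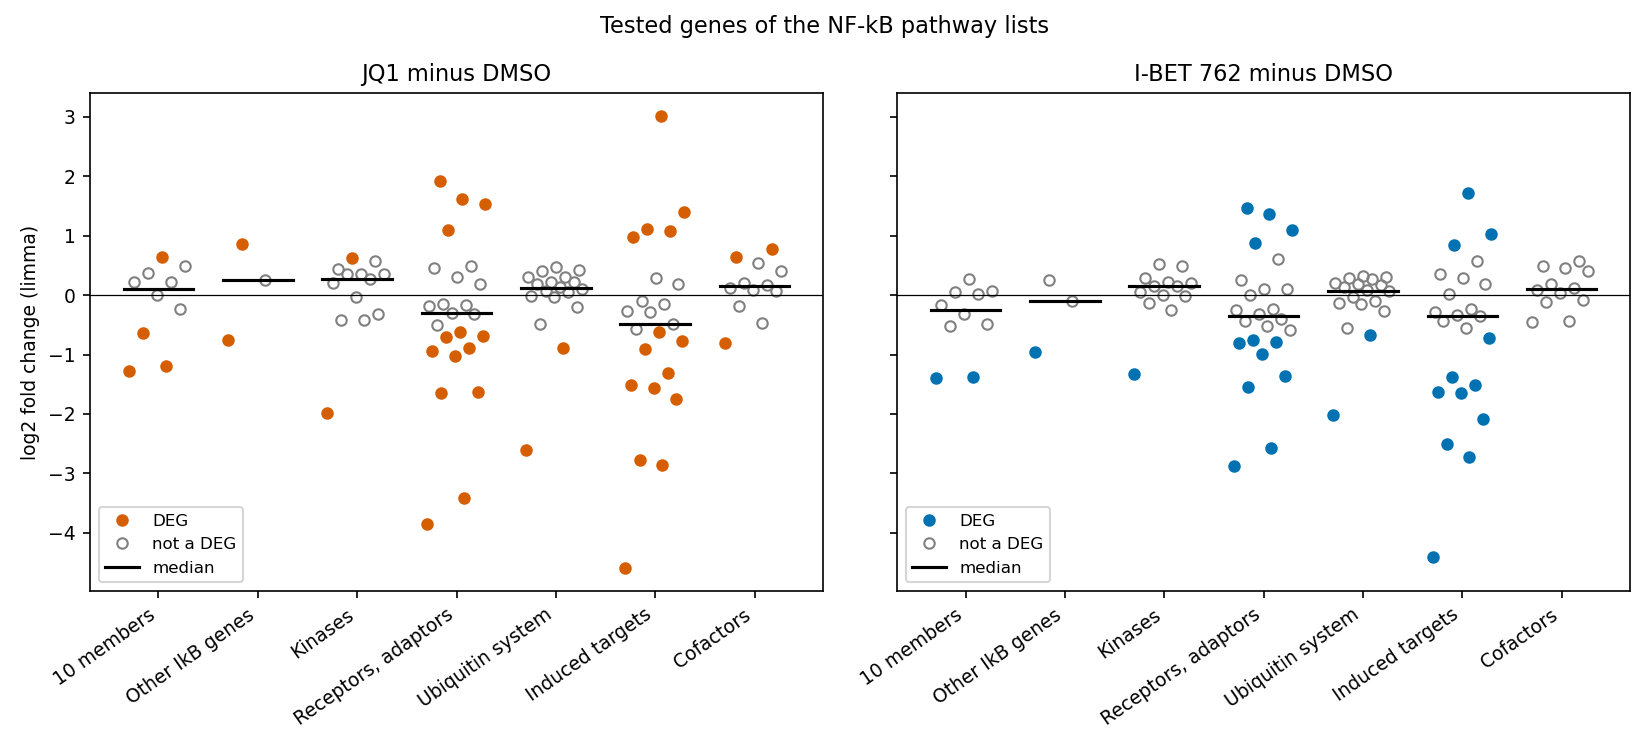
log2 fold change against DMSO (vertical axis) of each tested gene of the NF-kB lists, with JQ1 (left) and I-BET 762 (right); filled points are DEGs, open points are not, and the black line is the median of the list. Receptors with adaptors and induced targets spread over the widest range, from -4.59 (IL32) to 3.01 (IER3) with JQ1, and their medians are below 0.

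The kB match in the promoter windows was set beside the changes. Of the 23 induced targets with a window, 12 held a match, as did all 3 of the remaining IkB genes. Among the 1018 tested genes with a match, 39.8% were DEGs with JQ1 (11.6% up and 28.2% down), beside 35.4% (12.8% up and 22.6% down) of the 11244 tested genes with a window. With I-BET 762 these shares were 29.9% (7.86% up and 22.0% down) and 26.2% (8.64% up and 17.5% down). Among the genes shown above, those with a match did not share a direction: TNFAIP3, BCL3, NFKB1 and NFKB2 fell with both BETis, REL rose with both, BIRC3 rose with JQ1 and fell with I-BET 762, and NFKBIA did not pass the test with JQ1 and fell with I-BET 762.

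TNFAIP3, which had the largest fitted log2 fold change with JQ1 in size, was used to look for genes of like pattern outside the lists. FAM98C (r = 0.996), CTSZ (r = 0.994) and TRIM38 (r = 0.994) had the highest Pearson correlation of log2 values with it over the 10 libraries, which share their DMSO, JQ1 and I-BET 762 groups. FAM98C was at 353 ± 25.0 normalized counts with DMSO, 171 ± 8.11 with JQ1 and 153 ± 9.71 with I-BET 762. Such a pattern was common, as 566 genes had r above 0.95.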

How the data were processed

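RNA of SK-UT-1 cells was sequenced as strand-specific total RNA libraries, and the labels give 12 samples, 4 per group, of which 10 libraries have a column in the table used here. As stated in the authors' methods and processing notes, reads were checked with FastQC 0.73, trimmed (Trimmomatic), mapped to hg38 (HISAT2 2.2.1) and counted per gene with featureCounts 2.0.3, counts were normalized with DESeq2, and outlier samples were excluded. Whether counting used the strand is not given in the sources used here. The values as deposited by the authors are log2 of the normalized count plus 1 (0 to 20.5). Undoing the log2 and the added 1 gave whole reads for 99.7% to 99.8% of values in each library (within 0.01 of a read), and these gave the depths.

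Groups were taken from the treatment in the labels. Testing was limited to genes that reached a normalized count of 10 in 3 or more libraries. The log2 values of all 10 libraries were fitted in one linear model with limma 3.58.1 in R 4.3.3 (empirical Bayes with an intensity trend), p-values were adjusted by Benjamini-Hochberg over all 14839 of them, and DEGs passed an adjusted p-value of 0.05 as well as a fold of 1.5. Fold changes are on the log2(value + 1) scale, which understates those of low genes. The code was tested on simulated data. Exon lengths and positions came from Gencode V44 and promoter windows from RefSeq. Alternatives covered pseudocount, filter, scaling, moderation, groups in the fit, limma-voom on the recovered reads, fold threshold, gene length and each library left out. In the lists, the genes named were DEGs against DMSO or among the 3 with the largest change with JQ1, beside BRD2, BRD3, HEXIM1, MYC and the 3 genes most like TNFAIP3. Some of the genes this rule covers are not reported here. BIRC2, TNIP2 and the 6 targets too low to be tested were named outside this rule, after their values were seen. The 10 genes, the lists and the tests were chosen with earlier results of these data known. Python 3.11.15 was used for tables, with pandas 2.3.3, numpy 2.4.6 and scipy 1.17.1.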

Additional observations from a re-analysis of the deposited data

Results flagged for a closer look

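In a group of 4 libraries, a library is called far from the others when its gap to the nearest one exceeds 0.829 of the range of the group, which chance alone brings about in about 1 in 20 groups. By this measure JQ1 replicate 18 lay below the other JQ1 libraries for NFKB2 (gap 0.853 of the range) and for NFKBIA (0.891). JQ1 replicate 17 lay above the others for CXCL2 (0.864), and JQ1 replicate 19 lay below them for TRAF5 (0.866). These 4 were found among 55 genes examined in the JQ1 group, which were the members, the DEGs of the lists, the 3 tested genes of each list with the largest change with JQ1, and a few BETi response genes. The remaining genes of the lists and the groups of 3 libraries were not examined in this way.

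The effects of JQ1 and I-BET 762 on BIRC3 differed by 0.97 on the log2 scale in a test of the difference itself (limma, adjusted p = 1.60e-06). BIRC3 was higher in each of the 4 JQ1 libraries and lower in each of the 3 I-BET 762 libraries than in any DMSO library. The separation from I-BET 762 was narrow, with 729 normalized counts in I-BET 762 replicate 23 and 733 in DMSO replicate 13.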

How the results depend on the processing

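Over the 3 comparisons the 10 genes were refitted under 627 alternatives in all, of which 599 kept the direction and the side of the DEG threshold, 6 lost the DEG call, 15 gained it and 7 turned the sign. For the other list genes named, 1988 of 2070 alternatives kept both, 52 lost the call, 30 gained it and none turned the sign. Much of this was fixed by the settings, so these tallies do not measure how robust the results are. Changing the filter, moderation, groups in the fit or fold threshold leaves a log2 fold change as it was. So does leaving out a library of a group that is not compared. Those alternatives could not turn a sign. Dropping the fold threshold could only add calls, and raising it could only remove them. The sign turned for NFKBIA with JQ1, whose log2 difference was between -0.010 and 0.014 with each library left out (0.00030 without DMSO replicate 14, 0.0016 without DMSO replicate 15 and 0.014 without JQ1 replicate 18). It also turned for RELB with I-BET 762 without DMSO replicate 14 (-0.00010, with a range of -0.00010 to 0.062 over the libraries left out) and, with libraries rescaled to equal totals, for NFKBIE (-0.041), RELA (-0.019) and RELB (-0.072) with I-BET 762, and none of these had passed the test.

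All DEGs numbered 5358 with JQ1, 3991 with I-BET 762 and 788 in the direct comparison. Testing only genes that averaged 100 or more normalized counts gave 3359, 2338 and 418, since fewer genes were tested. No fold threshold gave 10633, 9073 and 4047, and a threshold of 2-fold gave 2958, 2108 and 206. Of the 10 genes, 4, 2 and 1 were DEGs, and 8, 7 and 5 without a fold threshold. A threshold of 2-fold left 2 with JQ1 and 0 in the direct comparison, where limma without a fold threshold called 5. With I-BET 762, the filter at 100 left 1, since BCL3 was not tested, and rescaling to equal totals gave 4, with NFKB1 and NFKB2 added. With each library left out, 3 to 4 were DEGs with JQ1. BIRC3 was no longer a DEG with JQ1 without DMSO replicate 13 or after rescaling to equal totals, and NFKB2 without JQ1 replicate 18.

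Subunit shares moved with the gene length used. With no length correction, the shares with DMSO, JQ1 and I-BET 762 were 34.1%, 29.4% and 27.5% for NFKB1, 19.9%, 12.9% and 15.7% for NFKB2, 21.6%, 25.3% and 25.8% for RELA, 10.998%, 13.1% and 12.7% for RELB, and 13.4%, 19.2% and 18.3% for REL. With the length of the MANE Select transcript, an alternative chosen after seeing the data, they were 28.4%, 24.9% and 23.0% for NFKB1, 22.2%, 14.7% and 17.7% for NFKB2, 28.9%, 34.6% and 34.7% for RELA, 16.4%, 19.9% and 19.0% for RELB, and 4.07%, 5.94% and 5.599% for REL. NFKB1 and NFKB2 were lower and the other 3 higher with both BETis under each length. No paired analysis was possible because the replicate numbers of the groups are all different.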
